A study of Mus musculus with 6 samples.

Results

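The genes described here are 31 genes of cholesterol and fatty acid synthesis, taken by gene symbol from the 2 pathways, out of 14968 protein-coding genes in the table. All 31 were present. They were measured by sequencing of polyadenylated RNA from regenerating corneal epithelium of male C57BL/6 mice, collected a day after the central epithelium had been scraped off and taking in the limbus with some of the repairing centre. The diabetic group held 3 libraries from mice 16 weeks after injection of streptozotocin (STZ), which kills pancreatic beta cells and so causes type 1 diabetes. The control group held 3 libraries from age-matched mice without diabetes, and corneas of both groups were scraped. Several mice were pooled for each library, so the p-values below measure the spread between pools, and no unwounded cornea enters the comparison. STZ acts on the whole animal, and the design does not separate the loss of insulin from the high glucose that follows it. The question for these genes was whether the lipid synthesis programme of the healing epithelium differed between diabetic and control mice.

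Cells build cholesterol from acetyl-CoA through mevalonate, the isoprenoid farnesyl diphosphate, squalene and lanosterol. Fatty acids are built from the same acetyl-CoA by carboxylation, by the multifunctional synthase Fasn, and then by elongation and desaturation. The pathways share control by the sterol regulatory element-binding proteins (SREBPs). These are membrane-bound factors that the escort protein Scap carries to the Golgi for cleavage, and that the Insig proteins hold back in the endoplasmic reticulum when sterols are plentiful. SREBP-2, from Srebf2, acts mainly on sterol genes, and SREBP-1c, from Srebf1, mainly on fatty acid genes. Insulin raises SREBP-1c in liver, and lipid synthesis in a surface epithelium also serves membranes of dividing and spreading cells.

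No gene of the 31 passed the test between diabetic and control libraries. Insig1, which holds SREBPs back from processing, was higher in every diabetic library than in any control library, with a log2 fold change of 0.31. Scd1, a stearoyl-CoA desaturase that makes monounsaturated fatty acids, was lower in every diabetic library, with a log2 fold change of -0.49. These were the 2 genes of the 31 with an unadjusted p under 0.05, which 11.5% of all genes tested had, and neither passed after adjustment across the table. Diabetic libraries lay wholly above the controls for 6.68% of all genes tested and wholly below them for 10.9%. The median log2 fold change was 0.08 and 0.13 in the 2 groups of sterol enzymes, 0.00 in the SREBP group and -0.16 in the fatty acid group, against -0.04 over all genes tested, and no test was made of a group. Within the sterol genes the 3 diabetic libraries differed from each other more than the groups did: replicate 2 was high and replicate 3 low.

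The libraries were checked against markers of the tissue and of other cells. Krt12, the keratin of corneal epithelium, had 3746, 5402 and 5743 FPKM (fragments mapped to a gene, scaled to its transcript length and to all mapped fragments) in the diabetic libraries, against 3427, 3746 and 3064 FPKM in the control libraries. Krt12 was thus abundant in all 6 libraries. The other 7 of 8 corneal and limbal markers had negative log2 fold changes, where 39% of all genes had positive ones. The median over the 8 was -0.06, against -0.04 over all genes tested. Among the 7 was Krt14, with 4115, 3871 and 4021 FPKM in the diabetic libraries, against 4788, 4416 and 5245 FPKM in the control libraries (-0.26, unadjusted p = 0.00598 by limma). Of 8 conjunctival and goblet cell markers 5 were measured. At an unadjusted p under 0.05, 3 were higher (4.61% of all genes) and 1 lower (6.91% of all genes). Krt13, a keratin of conjunctival and other mucosal epithelium, had 1522 to 1875 FPKM over all libraries. Krt4 had 192, 143 and 300.2 FPKM in the diabetic libraries, against 90.7, 140.2 and 117 FPKM in the control libraries. Summed FPKM over the table was 308757.1 in diabetic replicate 3 and lay between 329197.3 and 331926.4 in the other libraries, and the depth in reads is unknown. Correlations of log2(FPKM + 1) across genes, which are not independent replicates, were 0.981 to 0.984 between diabetic libraries, 0.984 to 0.988 between control libraries and 0.975 to 0.984 between groups. The 11 lens markers summed to 130.3, 389.5 and 96.42 FPKM in the diabetic libraries, against 56.88, 66.73 and 69.15 FPKM in the control libraries. Neutrophil markers summed to 1341, 993.9 and 1099 FPKM in the diabetic libraries, against 635.1, 513.2 and 888.9 FPKM in the control libraries. All 11 measured had a positive log2 fold change, against 39% of all genes. Their median difference from the mean of the control libraries on log2(FPKM + 1) was 1.09, 0.035 and 0.19 in diabetic replicates 1, 2 and 3. In control replicates 1, 2 and 3 it was -0.10, -0.19 and 0.25. By this median only diabetic replicate 1 stood above every control library. Erythrocyte markers summed to 18.02, 9.898 and 22.3 FPKM in the diabetic libraries, against 41.33, 106.9 and 43.99 FPKM in the control libraries. Of the 5 tested, 4 were lower at an unadjusted p under 0.05 (6.91% of all genes). Of 10 macrophage and monocyte markers tested, 3 were higher (4.61% of all genes) and 2 lower at that p. Markers of lipid-rich tissue were mixed. Of 6 adipocyte markers Adipoq, Plin1, Cidec and Lep were not among the genes analysed, Cfd had at most 0.028 FPKM and Fabp4 1.85 to 3.66 FPKM. Of 8 meibomian and sebaceous gland markers, Awat1, Mc5r and Elovl3 were not among the genes analysed, Far2 had at most 0.052 FPKM, Awat2 at most 0.272 FPKM and Fa2h at most 0.447 FPKM. The other 2, which many cells express, were Soat1 with 0.826 to 1.74 FPKM and Plin2 with 16.1 to 22.3 FPKM.

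Promoter sequences show what the genes share that their choice did not use. SREBPs bind sterol regulatory elements weakly on their own and act with NF-Y, which binds CCAAT boxes, and with Sp1, which binds GC boxes. RefSeq promoter windows (GRCm38.p6, 250 bases before and 50 after the transcription start) were matched by symbol for 26 of the 31 genes, and Fdps, Fdft1, Sqle, Scd1 and Scd2 had no match. Where a gene had several starts only the most upstream was used, so its other promoters were not searched. For 22 of the 26 genes, bases after the start were found near the beginning of an annotated transcript. CCAAT, on either strand, stood in 22 of the 26 windows (84.6%), against 4386 of all 11418 windows (38.4%). At least 2 copies stood in 11 of the 26 windows (42.3%), against 14.3% of all windows. The windows of Acaca, Dhcr7, Elovl6 and Scap did not hold these letters. GGCGGG, the core of a GC box, stood in 69.2% of the 26 windows and 60.7% of all windows. The E-box CACGTG stood in 19.2% of the 26 windows and 9.74% of all windows. TCACNCCAC, written after the classical sterol element, stood in 1 of the 26 windows (3.85%), that of Hmgcs1, and in 1.13% of all windows. The shorter CACNCCAC, which every such match also contains, stood in 2 of the 26 windows (7.69%), those of Hmgcs1 and Insig1, and in 6.32% of all windows. A match is a run of letters and not a measured binding site.

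The upstream part of 4 windows is printed here to show these motifs in sequence. Insig1, Cyp51 and Srebf2 were taken because their diabetic and control libraries did not overlap with the diabetic ones higher, and Hmgcs1 for the longer sterol motif, all after their values were known. Such a lack of overlap was found for 6.68% of all genes, so the choice does not mark these genes as a result. Each sequence is the 250 bases before the RefSeq start, 5′ to 3′ on the strand of the gene, and the starts are not always those of the deposited table. Insig1 lies at chr5:28071162-28071411 on the plus strand, Srebf2 at chr15:82147019-82147268 on the plus strand, Cyp51 at chr5:4104698-4104947 on the minus strand and Hmgcs1 at chr13:119690101-119690350 on the plus strand, all in GRCm38.p6. Capitals mark a CCAAT box, an E-box or a sterol-type match, and a match on the other strand is read in reverse complement.
Insig1: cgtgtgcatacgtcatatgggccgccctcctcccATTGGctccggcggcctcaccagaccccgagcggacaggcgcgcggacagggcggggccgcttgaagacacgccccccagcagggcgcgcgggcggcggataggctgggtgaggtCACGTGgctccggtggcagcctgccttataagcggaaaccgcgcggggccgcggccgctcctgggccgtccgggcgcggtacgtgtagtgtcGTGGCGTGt
Srebf2: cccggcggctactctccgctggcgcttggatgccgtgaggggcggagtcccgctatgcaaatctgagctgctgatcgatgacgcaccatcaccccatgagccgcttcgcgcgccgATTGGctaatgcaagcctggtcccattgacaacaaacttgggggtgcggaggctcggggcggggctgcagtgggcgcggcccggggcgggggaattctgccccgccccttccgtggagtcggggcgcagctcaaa
Cyp51: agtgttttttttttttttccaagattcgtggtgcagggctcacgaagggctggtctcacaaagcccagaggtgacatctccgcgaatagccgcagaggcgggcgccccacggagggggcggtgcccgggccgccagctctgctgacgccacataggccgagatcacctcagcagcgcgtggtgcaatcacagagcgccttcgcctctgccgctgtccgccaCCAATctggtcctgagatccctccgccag
Hmgcs1: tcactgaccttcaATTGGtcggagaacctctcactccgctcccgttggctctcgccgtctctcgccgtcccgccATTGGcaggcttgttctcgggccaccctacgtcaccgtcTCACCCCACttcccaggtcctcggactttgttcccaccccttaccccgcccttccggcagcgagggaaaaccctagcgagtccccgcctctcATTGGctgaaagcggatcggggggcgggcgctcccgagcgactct

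Counted from the transcription start, the first base of the CCAAT box lay at -216, of the E-box at -101 and of the shorter sterol-type match at -9 in the Insig1 window. The CCAAT box began at -135 in Srebf2 and at -29 in Cyp51. In Hmgcs1 CCAAT boxes began at -237, -176 and -45 and, after the start and so not printed, at 11, and the sterol-type match at -137. Of the other sterol enzymes, Mvk held 5 CCAAT boxes in its window, Nsdhl 4, and Msmo1 and Hsd17b7 3 each.

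**Figure D1:**
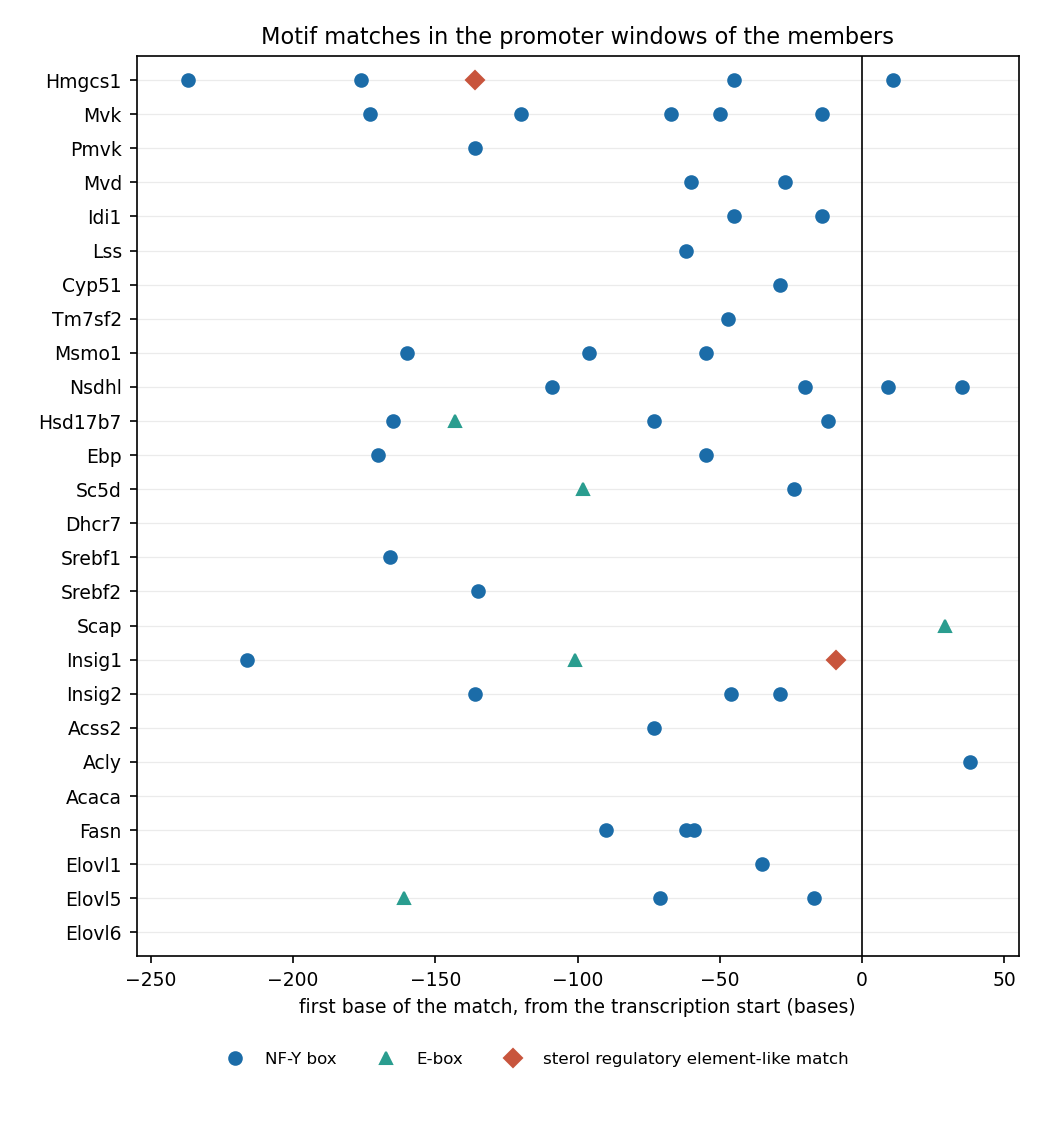
Position of each motif match in the promoter windows of the 26 genes with a RefSeq sequence, in bases from the transcription start (vertical line at 0). Circles are NF-Y (CCAAT) boxes, triangles E-boxes and diamonds sterol regulatory element-like matches of the shorter motif; 22 of the 26 rows carry a circle, and Acaca, Dhcr7 and Elovl6 carry no symbol.

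FPKM is scaled to transcript length, so levels can be set side by side between genes. The 31 genes averaged 2.51 to 135 FPKM over the 6 libraries, with a median of 28.9 FPKM, against a median of 5.17 FPKM over the 12149 genes tested. Fdps, farnesyl diphosphate synthase, was the most abundant at 135 FPKM, ahead of Hmgcs1 at 122 FPKM and Scd2 at 121 FPKM. These 3 neighbours lay within the spread of their own libraries. At the low end, Acaca had 2.51 FPKM, Tm7sf2 3.60 FPKM and Dhcr7 3.73 FPKM. Dhcr7 makes the last step to cholesterol by one of its routes, so enzymes of the same chain differed widely in RNA level. The desaturase Scd2 was about as abundant as the main sterol enzymes, whereas Acaca, the carboxylase that commits acetyl-CoA to fatty acid synthesis, stood at percentile 30.2 of the genes tested. Of the cytosolic acetyl-CoA suppliers Acly, which splits citrate, averaged 49.2 FPKM and Acss2, which uses acetate, 5.09 FPKM. Acaca and Fdps have near-identical processed pseudogenes, which could take up or lend reads, so their levels are uncertain.

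**Figure D2:**
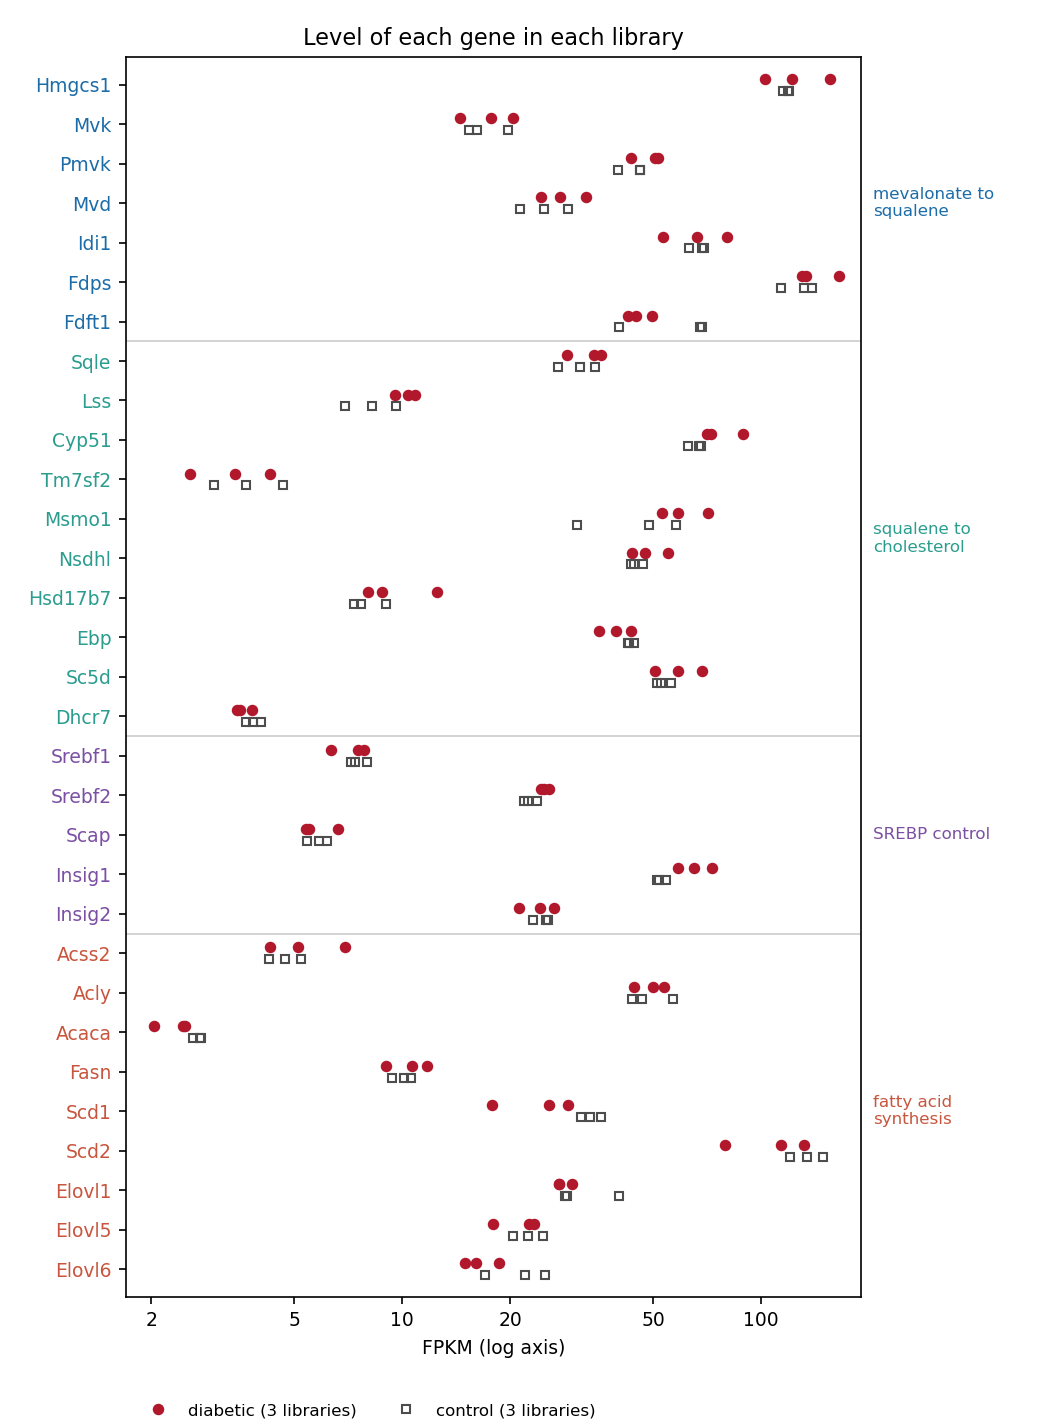
FPKM of each of the 31 genes in each library on a log axis, diabetic (filled circles) above control (open squares), grouped by role. Levels run from Acaca near 2.51 FPKM to Fdps near 135 FPKM on average, and for most genes the circles and squares overlap.

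Differences were tested with limma on log2(FPKM + 1), where a fold change understates that of a low gene, with Benjamini-Hochberg adjustment over 12149 genes. At an adjusted p under 0.05, 0 of the 31 genes were called, against 8 of all genes tested (0.0658%, with 0.0412% higher and 0.0247% lower). The smallest adjusted p among them was 0.334. At an unadjusted p under 0.05, 1 of the 31 was higher (background 4.61%) and 1 lower (background 6.91%). With a 1.5-fold change asked for beside that p, as the study did, 0 of the 31 were called (background 2.49%). Diabetic and control libraries did not overlap for 3 genes with the diabetic ones higher, Insig1, Cyp51 and Srebf2 (background 6.68%), and for 2 with the diabetic ones lower, Scd1 and Acaca (background 10.9%). These shares are too close to the background to be read as a result about the 31 genes. A positive log2 fold change was found for 18 of the 31, against 39% of all genes. The median over the 31 was 0.03, against -0.04 over all genes. Without diabetic replicate 2, 14 of the 31 were positive and the median was -0.05, against -0.056 over all genes. Without diabetic replicate 3, 23 were positive and the median was 0.13, against 0 over all genes. Median-of-ratios scaling gave 20 positive and a median of 0.082, against 0 over all genes. The share of 39% belongs to the main fit and is no background for these other fits. In bulk RNA, fewer cells of a type and less RNA per cell cannot be told apart.

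For 24 of the 31 genes the 95% interval of the difference lay within 1.5-fold in either direction on the log2(FPKM + 1) scale, which narrows the interval of low genes such as Tm7sf2 and Acss2. Those whose interval reached beyond it were Fdft1, Lss, Msmo1, Hsd17b7, Scd1, Scd2 and Elovl6, and for them a 1.5-fold difference was not excluded by these libraries. On simulated data made for this comparison, 37% of genes changed 1.5-fold and 79% of genes changed by 1 on the log2 scale were called. The changed genes were drawn at random and the spreads were shuffled between genes, so these shares are not specific to the 31 genes. A moderate difference could therefore go uncalled at this number of libraries.

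**Figure D3:**
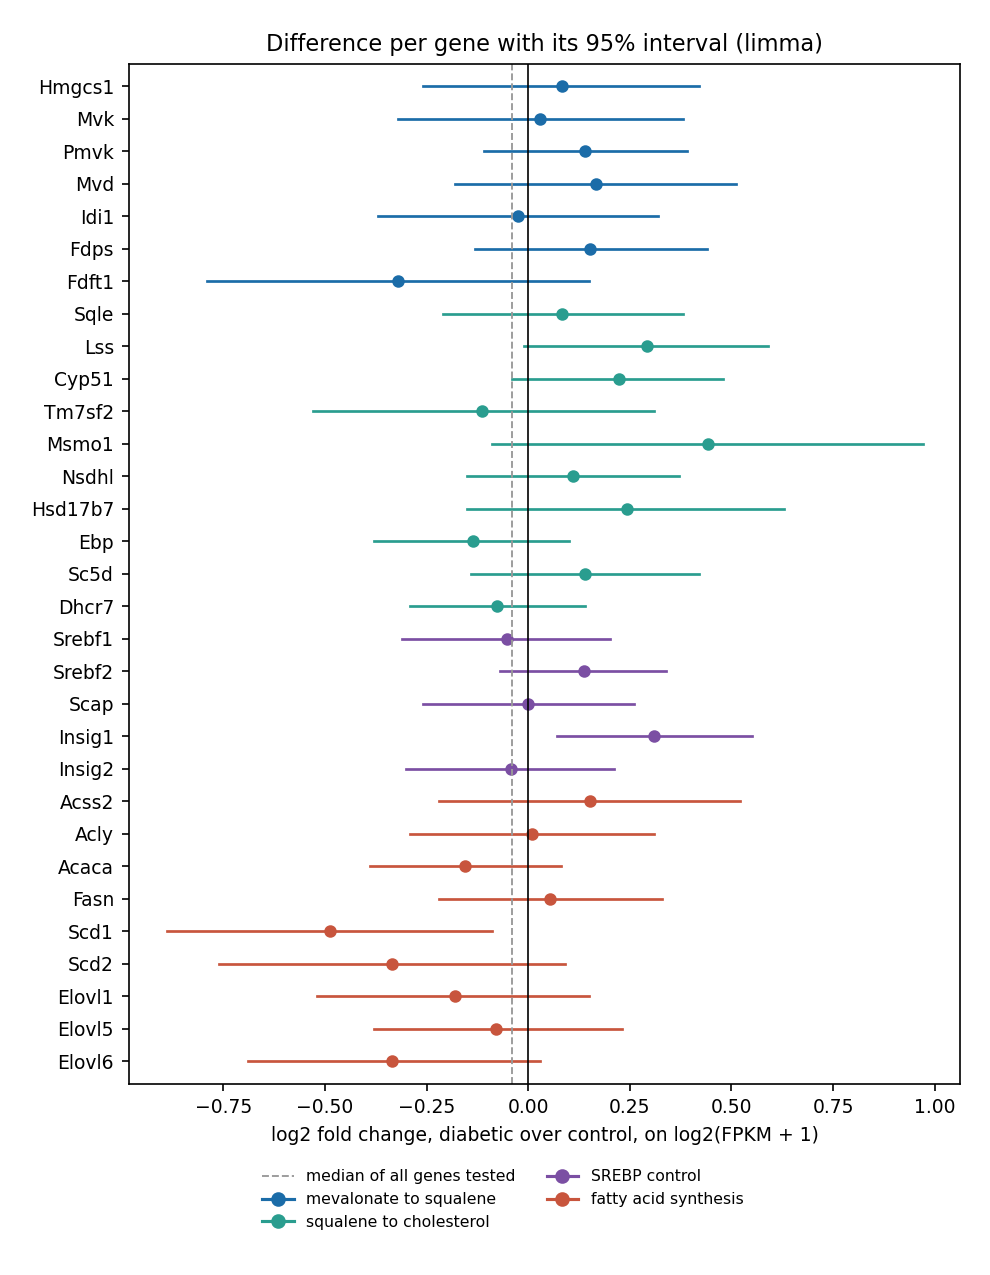
Log2 fold change of each gene, diabetic over control, with its 95% interval from limma; the solid line is 0 and the dashed line the median of all genes tested (-0.04). Only the intervals of Insig1 and Scd1 leave out 0, and the points for Idi1 (TPM, median-of-ratios and quantile scaling) and Insig2 (median-of-ratios and quantile scaling) turn to the other side of 0.

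The first group holds 7 enzymes on the way from acetoacetyl-CoA to squalene. None had an unadjusted p under 0.05, 5 of 7 log2 fold changes were positive, and their median was 0.08. Hmgcs1, which condenses acetoacetyl-CoA with acetyl-CoA early in the pathway, had 122, 156 and 103 FPKM in the diabetic libraries, against 115, 119 and 119.6 FPKM in the control libraries. The control libraries nearly coincided, and the diabetic ones spread to both sides of them (log2 fold change 0.08, SE 0.15). Idi1, which isomerises isopentenyl diphosphate, had 66.5, 80.5 and 53.3 FPKM in the diabetic libraries, against 63.2, 68.7 and 69.2 FPKM in the control libraries, the same picture. Its difference was -0.02 (SE 0.15) and became 0.03 with median-of-ratios scaling, so it has no direction. Idi1 also has near-identical pseudogene copies, so its reads may be shared.

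Pmvk, phosphomevalonate kinase, had 50.7, 51.5 and 43.4 FPKM in the diabetic libraries, against 40.1, 45.9 and 45.9 FPKM in the control libraries. The groups overlapped through diabetic replicate 3 (0.14, SE 0.11). Fdps had 133, 165 and 130.4 FPKM in the diabetic libraries, against 113, 132 and 139 FPKM in the control libraries (0.15, SE 0.12). Its exons overlap Gm43738 on the same strand, and it has 4 processed pseudogenes with at least 95% identity over 200 bases, so its FPKM is uncertain. Mvd, which decarboxylates mevalonate diphosphate, averaged 28.2 ± 4.15 FPKM in the diabetic libraries and 25.03 ± 3.86 FPKM in the control libraries (SD, n = 3 each). Mvk, mevalonate kinase, averaged 17.5 ± 2.98 FPKM in the diabetic libraries and 17.1 ± 2.32 FPKM in the control libraries (SD, n = 3 each). For Mvk and Mvd the difference was smaller than the SD of either group.

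Fdft1, squalene synthase, sends farnesyl diphosphate into sterols and was the gene of the group with the smallest p. It had 42.6, 49.7 and 44.7 FPKM in the diabetic libraries, against 40.2, 67.7 and 68.5 FPKM in the control libraries. Control replicate 1 lay with the diabetic libraries and the other controls stood well above them. The difference was -0.32 (SE 0.20, unadjusted p = 0.154 by limma), and without control replicate 1 it was -0.57 (unadjusted p = 0.00221, adjusted p = 0.312). It was -0.20 without control replicate 2 and -0.19 without control replicate 3. Fdft1 shares 774 bases of exon with Ctsb, a cathepsin gene on the opposite strand, and has a pseudogene copy. The kit keeps the strand, but whether the quantification used it is not stated in the sources used here, so the value is uncertain. Exons of Cyp51, Elovl1, Acss2 and Srebf1 also overlap other coding genes on the opposite strand, and those of Tm7sf2 overlap Vps51 on the same strand. Elovl6 has a near-identical processed pseudogene. The effect on the values of these genes was not measured.

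The second group holds 10 enzymes from squalene to cholesterol. None had an unadjusted p under 0.05, 7 of 10 log2 fold changes were positive, and the median was 0.13, the highest of the 4 groups. Lss, which folds oxidosqualene into lanosterol, had 10.4, 10.8 and 9.58 FPKM in the diabetic libraries, against 6.91, 9.60 and 8.25 FPKM in the control libraries. Only control replicate 2 reached the lowest diabetic library (0.29, SE 0.13, unadjusted p = 0.0541 by limma, adjusted p = 0.441), and without control replicate 1 the difference was 0.18. Cyp51, which removes the 14-alpha-methyl group of lanosterol, had 70.9, 89.4 and 72.4 FPKM in the diabetic libraries, against 62.8, 68.2 and 67.0 FPKM in the control libraries. All diabetic libraries were above all control libraries, with most of the distance in replicate 2 (0.22, SE 0.11, unadjusted p = 0.0844). Without diabetic replicate 2 the difference was 0.12. With TPM, median-of-ratios or quantile scaling, Lss and Cyp51 had an unadjusted p between 0.0242 and 0.0419.

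Msmo1, the sterol C4-methyl oxidase, had the largest positive difference of the 31 genes. It had 58.7, 71.3 and 53.1 FPKM in the diabetic libraries, against 48.8, 58.0 and 30.6 FPKM in the control libraries. Control replicate 3 was far below the other libraries (0.44, SE 0.23, unadjusted p = 0.0898), and without it the difference was 0.18. Hsd17b7, the ketone reductase of the same demethylation complex, had 8.81, 12.5 and 8.02 FPKM in the diabetic libraries, against 7.32, 9.02 and 7.69 FPKM in the control libraries. Here diabetic replicate 2 stood alone (0.24, SE 0.17), and without it the difference was 0.07. Nsdhl, the dehydrogenase of that complex, averaged 48.7 ± 5.88 FPKM in the diabetic libraries and 44.9 ± 1.84 FPKM in the control libraries (SD, n = 3 each). The 3 demethylation genes thus had positive differences, none past the test.

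Sqle, squalene epoxidase and a control point of the pathway, had 34.2, 35.7 and 28.9 FPKM in the diabetic libraries, against 27.2, 34.4 and 31.4 FPKM in the control libraries (0.08, SE 0.13). The groups overlapped almost fully. Sc5d, the lathosterol desaturase, averaged 59.3 ± 8.85 FPKM in the diabetic libraries and 53.3 ± 2.50 FPKM in the control libraries (SD, n = 3 each). Ebp, the sterol isomerase, averaged 39.4 ± 4.07 FPKM in the diabetic libraries and 43.3 ± 0.885 FPKM in the control libraries (SD, n = 3 each). Ebp, Tm7sf2 and Dhcr7 were the enzymes of the group with a negative difference, of -0.14, -0.11 and -0.08, and Tm7sf2 turned to 0.03 without diabetic replicate 3. Tm7sf2 reduces the C14 double bond, a step that the lamin B receptor can also carry out, and at 3.43 ± 0.862 FPKM in the diabetic libraries and 3.77 ± 0.838 FPKM in the control libraries (SD, n = 3 each) it was low in both. Dhcr7 averaged 3.61 ± 0.182 FPKM in the diabetic libraries and 3.86 ± 0.186 FPKM in the control libraries (SD, n = 3 each), a difference whose 95% interval was -0.29 to 0.14.

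The SREBP machinery is the third group, with a median of 0.00 over 5 genes. Insig1 (ENSMUSG00000045294.11, chr5:28071363-28078662 on the plus strand, GRCm38) had 64.9, 73.0 and 58.8 FPKM in the diabetic libraries, against 51.2, 54.4 and 52.0 FPKM in the control libraries. Each diabetic library was above each control library, and the control libraries lay close together. The difference was 0.31 (SE 0.10, 95% interval 0.07 to 0.55, unadjusted p = 0.0187 by limma, adjusted p = 0.334). Leaving out a library in turn kept it between 0.23 and 0.38, with an unadjusted p under 0.05 in 4 of 6 fits. The p was 0.0769 without diabetic replicate 2 and 0.0612 without control replicate 1. Insig1 is itself a target of SREBPs, so its RNA is often read as a reporter of their activity. Insig2, its paralogue, which in liver responds to insulin in the opposite way, had 24.2, 26.4 and 21.2 FPKM in the diabetic libraries, against 25.2, 25.4 and 23.2 FPKM in the control libraries. The groups overlapped, and the difference of -0.04 turned to 0.01 with median-of-ratios scaling.

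Srebf2 had 24.3, 24.9 and 25.6 FPKM in the diabetic libraries, against 21.8, 23.7 and 22.4 FPKM in the control libraries. It had the lowest coefficient of variation of the 31 genes among diabetic libraries (2.64%), and these did not overlap the controls, but the difference was small (0.14, SE 0.09, unadjusted p = 0.171). Srebf1 had 7.83, 7.53 and 6.34 FPKM in the diabetic libraries, against 7.18, 8.003 and 7.37 FPKM in the control libraries. The groups overlapped, and the 95% interval of its difference was -0.31 to 0.20. A gene total does not separate the SREBP-1a and SREBP-1c transcripts, which differ in their first exon. Scap had 6.63, 5.51 and 5.38 FPKM in the diabetic libraries, against 6.18, 5.87 and 5.42 FPKM in the control libraries, and its difference was 0.00 (SE 0.11). Srebf RNA says nothing of how much of the protein is cleaved, which was not measured.

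Fatty acid synthesis is the fourth group, with 9 genes, 6 negative log2 fold changes and a median of -0.16. Scd1 (ENSMUSG00000037071.2, chr19:44394451-44407709 on the minus strand, GRCm38) had 25.6, 28.9 and 17.8 FPKM in the diabetic libraries, against 33.5, 35.8 and 31.5 FPKM in the control libraries. No diabetic library reached the lowest control, and diabetic replicate 3 was the farthest below. The difference was -0.49 (SE 0.17, 95% interval -0.89 to -0.09, unadjusted p = 0.023 by limma, adjusted p = 0.35). Without diabetic replicate 3 it was -0.29 (unadjusted p = 0.0291), and over all fits without a library it lay between -0.63 and -0.29. The p missed 0.05 without control replicate 1 (0.0539) or control replicate 2 (0.0688). Scd2, the isoform best known from brain, had 114, 131 and 79.2 FPKM in the diabetic libraries, against 135, 149 and 120.1 FPKM in the control libraries. Diabetic replicate 2 lay within the controls and replicate 3 far below them (-0.34, SE 0.18, unadjusted p = 0.107), and without replicate 3 the difference was -0.13. Scd1 and Scd2 transcripts share 95.5% identity over 623 bases, so reads there could be assigned to either.

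Among the elongases, Elovl6, which extends palmitate to stearate, the substrate of Scd1, had 14.98, 18.6 and 16.1 FPKM in the diabetic libraries, against 17.0, 24.97 and 22.0 FPKM in the control libraries. Control replicate 1 lay among the diabetic libraries (-0.33, SE 0.16, unadjusted p = 0.0648), and without it the difference was -0.48 (unadjusted p = 0.012, adjusted p = 0.506), while without control replicate 2 it was -0.22. Elovl1, which extends saturated chains to very long ones for sphingolipids, had 29.8, 27.4 and 27.4 FPKM in the diabetic libraries, against 28.5, 28.8 and 40.1 FPKM in the control libraries. Control replicate 3 alone set that difference, which was -0.18 with it and -0.02 without it. Elovl5, which extends polyunsaturated chains, averaged 21.3 ± 2.95 FPKM in the diabetic libraries and 22.5 ± 2.18 FPKM in the control libraries (SD, n = 3 each), with no direction that held when diabetic replicate 3 was left out.

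Acaca, Fasn, Acly and Acss2 had no unadjusted p under 0.05 by limma. Acaca had 2.48, 2.45 and 2.04 FPKM in the diabetic libraries, against 2.73, 2.75 and 2.61 FPKM in the control libraries. The groups did not overlap, and the difference was -0.16 (SE 0.10, unadjusted p = 0.158). Fasn had 11.7, 10.7 and 9.004 FPKM in the diabetic libraries, against 9.39, 10.5 and 10.1 FPKM in the control libraries, with a 95% interval of -0.22 to 0.33. Acly had 50.02, 53.6 and 44.2 FPKM in the diabetic libraries, against 46.7, 56.9 and 43.7 FPKM in the control libraries, and its difference was 0.01 (SE 0.13). Acss2 had 5.11, 6.94 and 4.27 FPKM in the diabetic libraries, against 4.71, 5.21 and 4.26 FPKM in the control libraries, with diabetic replicate 2 alone above the controls. So among the genes that feed and build palmitate Acaca was negative. The small positive differences of Acss2, Acly and Fasn had no direction that held, as each changed sign when single libraries were left out. The negative differences of the group were those of Acaca, the desaturases and the elongases. Without single libraries the difference of Elovl1 rose to as much as -0.024 and that of Elovl5 to 0.036.

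**Figure D4:**
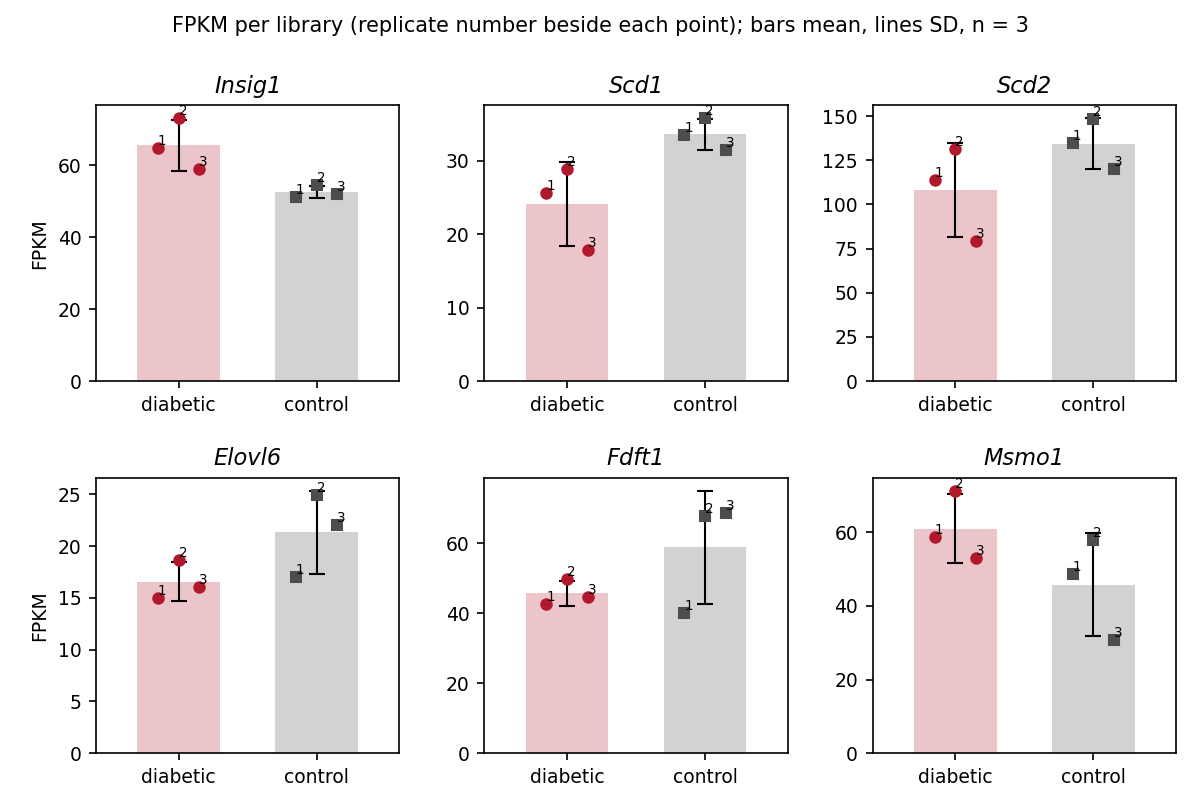
FPKM per library for 6 genes, with diabetic at the left and control at the right of each panel; bars are means, lines SD (n = 3), and numbers give the replicate. Insig1 lies higher and Scd1 lower in all diabetic libraries, while for Elovl6, Fdft1 and Msmo1 1 control library lies below the other controls, and for Scd2 diabetic replicate 3 lies below the rest.

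As group medians, the sterol enzymes differed from library to library, although single genes such as Fdft1, Msmo1 and Dhcr7 departed from the median. Relative to the mean of the control libraries on the log2(FPKM + 1) scale, the 7 genes up to squalene had medians of 0.06, 0.26 and -0.20 in diabetic replicates 1, 2 and 3, against -0.14, 0.06 and 0.05 in control replicates 1, 2 and 3. For the 10 genes from squalene to cholesterol the medians were 0.12, 0.32 and -0.05 in the diabetic replicates, against -0.06, 0.11 and -0.01 in the control replicates. Diabetic replicate 2 was thus the highest library and diabetic replicate 3 or control replicate 1 the lowest. Diabetic replicate 2 was the highest of the diabetic libraries for 24 of the 31 genes, against 35.9% of all genes tested, and for all 7 genes up to squalene. Diabetic replicate 3 was the lowest of them for 26 of the 31 genes, against 59.1% of all genes tested. Among all 6 libraries, diabetic replicate 2 was highest for 16 of the 31 (14.4% of all genes), and diabetic replicate 3 was lowest for 15 (42.3% of all genes). Control replicate 1 was lowest for 11 (8.5% of all genes) and highest for 0 (27.8% of all genes). No test was made of these counts.

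Fatty acid genes had another order over the 6 libraries, though by median the diabetic libraries ranked as they did for the sterol enzymes. The medians of the fatty acid genes were -0.09, -0.03 and -0.28 in diabetic replicates 1, 2 and 3, against 0.00, 0.12 and -0.09 in control replicates 1, 2 and 3. Control replicate 2 was the highest of the 6 libraries for 6 of these 9 genes (11.7% of all genes), and diabetic replicate 3 the lowest for 5 (42.3% of all genes). The coefficient of variation was larger in diabetic than in control libraries for 22 of the 31 genes, against 57.4% of all genes. Its median over the 31 was 12.1% in diabetic libraries and 7.7% in control libraries, and over all genes 13.2% in diabetic libraries and 11.3% in control libraries. Diabetic replicate 2 was also the library with the highest lens sum (389.5 FPKM), and diabetic replicate 3 the one with the lowest total FPKM and the lowest sum of stromal keratocyte markers. That sum was 353.2, 386 and 262.7 FPKM in the diabetic libraries, against 431.1, 397.9 and 416.8 FPKM in the control libraries, and 3 of its 9 markers were lower at an unadjusted p under 0.05 (6.91% of all genes). The part of these features in the order of the libraries was not tested.

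**Figure D5:**
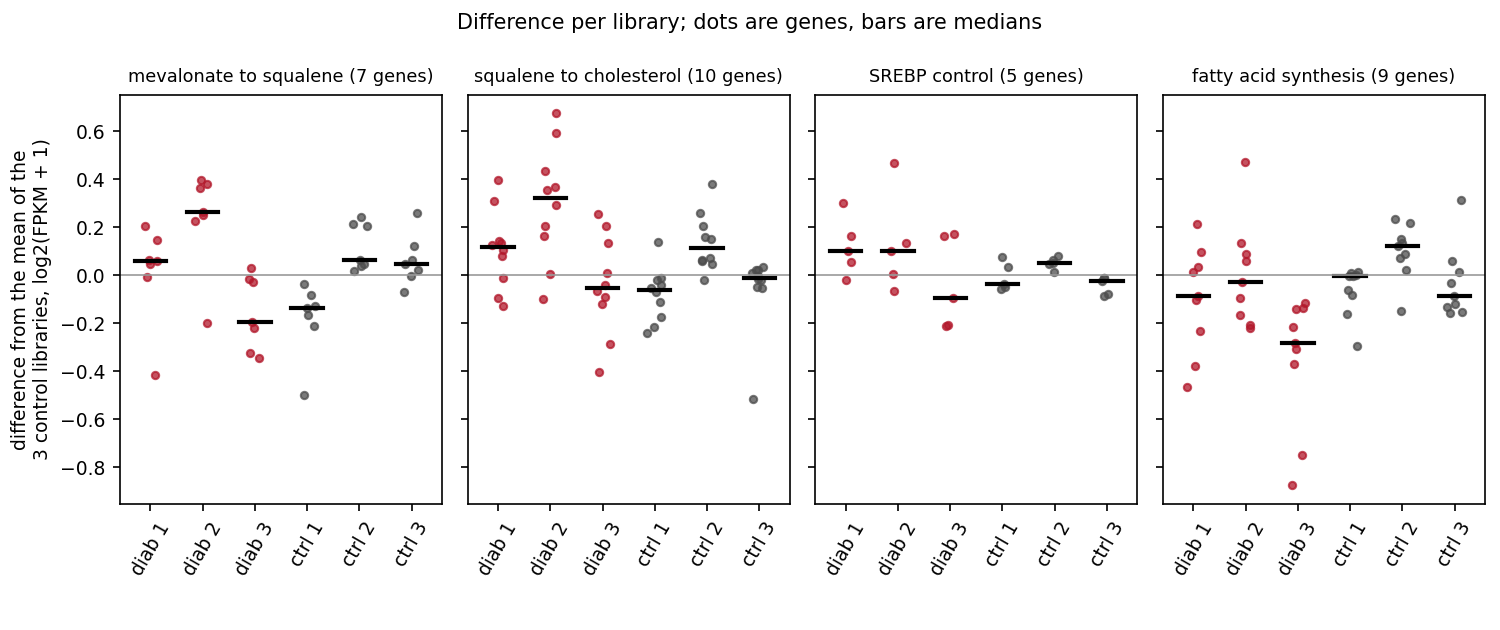
Difference of each library from the mean of the 3 control libraries on log2(FPKM + 1), 1 panel per role group; dots are genes (red diabetic, grey control) and black bars medians. In the sterol panels diabetic replicate 2 sits highest (medians 0.26 and 0.32), and in the fatty acid panel diabetic replicate 3 sits lowest (median -0.28).

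Neighbouring genes of the pathways were read from the same fit. Among 10 other sterol and isoprenoid enzymes 0 were called by limma at the adjusted threshold or at an unadjusted p under 0.05, and the median was -0.10. Of 8 genes of SREBP cleavage and sterol-regulated degradation 0 had an unadjusted p under 0.05, with a median of -0.10. Over all genes tested 11.5% had such a p. Among 14 genes of sterol uptake, transport and efflux, 1 was higher (4.61% of all genes) and 1 lower (6.91% of all genes) at an unadjusted p under 0.05. The lower one was Apoe.

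Apoe, a lipoprotein component that macrophages and stromal cells also make, had 141, 151 and 75.3 FPKM in the diabetic libraries, against 225, 175 and 166 FPKM in the control libraries. It was lower in all diabetic libraries (-0.67, SE 0.26, unadjusted p = 0.0333, adjusted p = 0.394), and diabetic replicate 3 was again the lowest. Without that library the difference was -0.36, and without control replicate 1 it was -0.54 (unadjusted p = 0.108).

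Larger differences were found beyond fatty acid synthesis itself, in genes already seen in earlier results of these data. Degs1, which makes ceramide by desaturating dihydroceramide, had 61.7, 64.0 and 59.0 FPKM in the diabetic libraries, against 32.1, 30.9 and 40.2 FPKM in the control libraries. The groups lay far apart (0.83, SE 0.12, unadjusted p = 0.000143, adjusted p = 0.076). Fabp5, the epidermal fatty acid-binding protein, had 467, 367 and 296 FPKM in the diabetic libraries, against 714, 626 and 689 FPKM in the control libraries, with no overlap (-0.87, SE 0.16, adjusted p = 0.11). Slc27a3, a fatty acid transport protein family member, had 1.55, 1.41 and 0.998 FPKM in the diabetic libraries, against 3.46, 3.01 and 3.71 FPKM in the control libraries (-0.93, SE 0.13, adjusted p = 0.076). All 3 missed the adjusted threshold and kept an unadjusted p under 0.05 whichever library was left out. With library weights they passed the adjusted threshold.

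Around them, 13 other elongation and desaturation enzymes could be tested, of which 1 was higher (Degs1) and 2 lower at an unadjusted p under 0.05. The lower ones were Elovl4, the elongase of ultra-long chains (-0.45, SE 0.16), and Fads1, the delta-5 desaturase (-0.30, SE 0.12). Of 14 genes of fatty acid activation, binding and glycerolipid synthesis, 1 was higher and 4 lower, and the median was -0.18. Lpin1, a phosphatidate phosphatase, was among the lower ones (-0.34, SE 0.13). Of 8 genes that supply acetyl-CoA and NADPH or drive lipogenesis, Me1, the cytosolic malic enzyme, alone had an unadjusted p under 0.05 (-0.30, SE 0.12). These lists are described by counts, and the share of all genes at an unadjusted p under 0.05 was 11.5%.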

How the data were processed

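Polyadenylated RNA of regenerating corneal epithelium was sequenced in 3 diabetic and 3 control libraries, grouped by sample title. Per the study's methods and the submitters' notes, stranded libraries (KAPA) were sequenced on a NovaSeq instrument, and the reads went through FastQC and cutadapt. HISAT2 aligned them to GRCm38 and StringTie gave expression values (no versions are given). The values deposited are the authors' FPKM of protein-coding genes. FPKM carries no read number: at best 46.4% of low values lay within 2% of whole reads, so whole reads were not recovered and depth is unknown. No identical values were shared between libraries. For a repeated symbol the row with the highest mean was used.

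Genes with a mean of at least 0.5 FPKM in 1 or both groups were kept (12149, with 2819 removed), and all 31 synthesis genes passed. A linear model on group was fitted to log2(FPKM + 1) in limma 3.58.1 (R 4.3.3), two-sided and with an intensity trend. Benjamini-Hochberg adjustment ran over the 12149 genes, and genes under 0.05 were called. Residual degrees of freedom were 4 and prior ones 3.65, with a median SE of 0.12. An exact permutation test of 3 against 3 cannot give a p below 0.1. The steps were tested on simulated data (12149 genes, 200 changed, 8 false calls). Promoters and their motifs came from RefSeq (GRCm38.p6), exon overlaps and near-identical copies from GENCODE M21, in which all 31 genes were found and 28 had the same span.

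Values per library were given by rule for genes with an unadjusted p under 0.05, the 2 smallest p of each role group and the SREBP genes, and for further genes of the 31. From each neighbouring list at most 3 genes with an unadjusted p under 0.05 were named; some genes of these lists are not reported here. The 31 genes, the lists and the motifs were chosen with earlier results of these data known. Alternatives were other pseudocounts (0.1 and 0.5), filters, scalings and variance models, library weights, a replicate block and leaving out each library.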

Additional observations from a re-analysis of the deposited data

How the results depend on the processing

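The number of the 31 genes called at the adjusted threshold was 0 under every alternative run. Over the whole table, 8 genes were called, against 1 without a filter, 5 with quantile normalization, 3 without an intensity trend, 129 with library weights and 3 with the replicate block; without single libraries it was 1 to 66. Of the 31, 1 was higher at an unadjusted p under 0.05, against 2 without a filter, 3 each with TPM, median-of-ratios and quantile scaling, 4 with library weights, 2 with the replicate block and 0 to 3 without single libraries. The number lower was 1, against 3 with the replicate block and 0 to 3 without single libraries. With TPM, median-of-ratios or quantile scaling the added genes were Lss and Cyp51. Over all genes, median-of-ratios scaling gave 774 higher and 749 lower at an unadjusted p under 0.05 (50.8% higher), against 560 and 839 (40% higher) without it. The shorter sterol motif stood in 2 windows, the longer one in 1. The cause of these differences was not tested.

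The study calls its samples paired and does not say how. Same-numbered libraries correlated at -0.198, 0.056 and -0.086 in their deviations from the group means. Differently numbered ones ranged from -0.227 to 0.291. No pairing by replicate number was thus seen, but so few libraries cannot decide whether there was one. With the replicate block, Msmo1 was added to the higher genes and Scd2 and Elovl6 to the lower ones.

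Differences near 0 changed sign. Idi1 was 0.015 with TPM, 0.032 with median-of-ratios, 0.045 with quantile scaling and 0.123 with library weights. Insig2 was 0.011 with median-of-ratios, 0.006 with quantile scaling and 0.009 with library weights, and Acly was -0.011 with library weights. Without single libraries the ranges were -0.167 to 0.127 for Idi1, -0.115 to 0.039 for Insig2, -0.068 to 0.118 for Acly, -0.081 to 0.154 for Mvk, -0.074 to 0.223 for Hmgcs1, -0.01 to 0.285 for Acss2, -0.026 to 0.149 for Fasn, -0.251 to 0.034 for Tm7sf2, -0.105 to 0.028 for Srebf1, -0.003 to 0.173 for Sqle, -0.081 to 0.048 for Scap and -0.146 to 0.036 for Elovl5. The group median up to squalene was -0.07 to 0.21 (negative without diabetic replicate 2), that from squalene to cholesterol 0.03 to 0.21, that of the SREBP genes -0.05 to 0.05 and that of fatty acid genes -0.19 to -0.09. With library weights, Degs1 was 0.93, Fabp5 -0.822 and Slc27a3 -0.837, all past the adjusted threshold, and Fabp5 (-1.03) and Slc27a3 (-0.999) passed it without diabetic replicate 1.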

Other observations

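Sp1, the factor that binds GC boxes beside sterol regulatory elements, had 10.4, 9.75 and 0.286 FPKM in the diabetic libraries, against 13.1, 11.9 and 9.69 FPKM in the control libraries. The single low value in diabetic replicate 3 makes its difference the largest of the lipogenic factors in size and its error wide (-1.21, SE 0.76, unadjusted p = 0.152 by limma), and Sp1 was chosen after its values were seen. Hsd17b12, the ketoacyl reductase of fatty acid elongation, had 87.7, 98.7 and 89.7 FPKM in the diabetic libraries, against 88.3, 41.1 and 84.6 FPKM in the control libraries, so that control replicate 2 alone set its difference (0.44, SE 0.27); it too was chosen after its values were seen.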
